A study of Mus musculus with 2 samples.

Results

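The nuclear lamins and the LINC complex (linker of nucleoskeleton and cytoskeleton) were examined through 10 genes chosen by name from 43346 genes in the deposited tables: Lmna, Lmnb1, Lmnb2, Lbr, Emd, Tmpo, Sun1, Sun2, Syne1 and Syne2. The rule is a list of names and uses no measured value, though it was written with earlier results of these data known. The tissue was whole forebrain of B6NCrl mice on the day of birth, with 1 total RNA-seq library from each of 2 pups with no treatment named, pup 1 (replicate 1) and pup 3 (replicate 2). Both pups form 1 group, so the data give levels, ratios between genes within a pup and the spread between the animals, and no contrast of conditions. With 2 animals an exact two-sided sign test cannot go below p = 0.5, so no p is given. Sex was not recorded, and both pups carry 1 donor identifier although they are described as separate animals; if they were not separate, the spread given here would be technical only.

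As background, the lamina is a meshwork of intermediate filaments under the inner nuclear membrane. Lmna encodes the A-type lamins A and C, and Lmnb1 and Lmnb2 encode the B-type lamins B1 and B2. Lbr, Emd and Tmpo encode inner membrane proteins that hold lamins and chromatin at the envelope. Sun1 and Sun2 cross the inner membrane and bind the KASH ends of the nesprins, encoded by Syne1 and Syne2, which reach from the outer membrane to actin and to microtubule motors. In the developing forebrain these links move the nucleus in cycling progenitors and in migrating neurons, and loss of a B-type lamin disturbs neuronal migration in the mouse cortex.

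The libraries held 40066386 and 40431595 expected counts. Marker genes fitted brain tissue, and these 2 lists do not test for forebrain. Neuronal markers (6 of 6 detected) summed to 2653 TPM in pup 1 and 2454 TPM in pup 3, of which Tubb3 gave 1836 and 1700 TPM. Markers of radial glia and astrocytes (4 of 4) summed to 2852 and 2896 TPM. TPM is a level corrected for gene length and library size, and a gene was called detected at 1 TPM or more in both pups. Markers of midbrain and hindbrain (0 of 3 detected) summed to 1.07 and 0.69 TPM, with Hoxa2 listed at 0 in both pups. Endothelial and mural markers (4 of 4 detected) summed to 142.3 and 142.5 TPM, and meningeal markers (4 of 4) to 126 and 143 TPM. Microglial markers (4 of 4) summed to 133 and 141 TPM, red blood cell markers (3 of 3) to 1310 and 1769 TPM, and markers of dividing cells (5 of 5) to 188 and 197 TPM. Markers of 1 list did not all move alike. Lower in pup 3 were 5 of 6 neuronal, 2 of 4 meningeal and 2 of 4 microglial markers, among them Cx3cr1 (9.16 and 4.25 TPM), against 80.4% of all genes with a mean of at least 1 TPM. Of the skeletal muscle markers 1 of 4 was detected, Acta1 at 17.9 and 14.4 TPM, and of the skin markers 1 of 3, Krt10. The part of these cell types in the levels below was not tested, and in bulk tissue fewer cells of a type and less RNA per cell cannot be told apart.

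All 10 genes were detected in both pups, against 33.2% of all genes and 60.7% of protein-coding genes. Their median level was 20.1 TPM, beside 17.0 TPM over the 13030 detected protein-coding genes. The levels ran from 44.7 TPM for Lmna down to 2.47 TPM for Sun2, and the order by mean level was Lmna, Lmnb1, Tmpo, Sun1, Syne2, Lmnb2, Lbr, Emd, Syne1 and Sun2. Of the 9 neighbouring pairs in that order, 4 had ranges that did not overlap between genes (Tmpo over Sun1, Lmnb2 over Lbr, Emd over Syne1, and Syne1 over Sun2). Ratios between genes were taken within a pup, on TPM + 0.1. A ratio was taken as larger than the spread between pups where the pups gave the same sign and the mean log2 value was over 3 SD; of the neighbours, Lmnb2 over Lbr (log2 0.32 ± 0.0074, SD, n = 2) and Syne1 over Sun2 (log2 1.01 ± 0.29) passed this, and the remaining 7 did not.

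**Figure D1:**
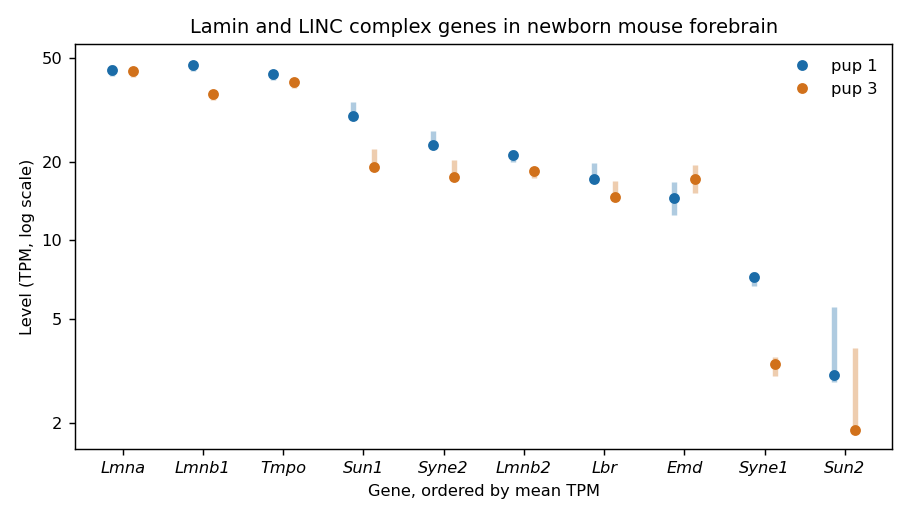
Level of each of the 10 genes in TPM (log axis), with 1 point for each pup, the deposited interval of each value as a bar, and genes ordered by mean level. Lmna, Lmnb1 and Tmpo lie together above 36 TPM in both pups, and Syne1 and Sun2 lie below all the others.

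Lmna (chr3:88480147-88509956, minus strand; mm10 here and throughout) had the highest mean TPM of the 10, at 44.9 TPM in pup 1 (2380 expected counts) and 44.5 TPM in pup 3 (2556 counts). The mean was 44.7 ± 0.304 TPM (SD, n = 2), higher than in 73.5% of detected protein-coding genes, and the deposited intervals of 42.4 to 46.7 and 42.1 to 46.2 TPM overlapped. The genes nearest in level over the 2 pups, by distance on the log2 scale among 13027 genes, were Ciz1 (44.9 and 44.3 TPM), Thap4 (45.0 and 44.6 TPM) and Zeb2 (44.6 and 44.6 TPM).

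The transcripts of Lmna divide by their encoded end, which separates lamin A from lamin C. Lamin A ends in a CaaX box, the signal for farnesylation, and is then cleaved by the protease encoded by Zmpste24, whereas lamin C has another end without that box. The last 60 coding bases of lamin C are shown because the split rests on that end, read 5′ to 3′ on the gene's strand from GENCODE M21 transcripts on GRCm38. In the lamin C end (Lmna-203, chr3:88483297-88483356, minus strand) the capitals mark the 21 bases not found in the lamin A transcript. The end of lamin B2 (Lmnb2-201, chr10:80902859-80903229, minus strand, over 2 exons), with its CaaX codons in capitals, stands beside it as an end that carries the farnesylation signal.
Lamin C end: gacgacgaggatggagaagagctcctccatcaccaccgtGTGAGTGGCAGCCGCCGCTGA
Lamin B2 end: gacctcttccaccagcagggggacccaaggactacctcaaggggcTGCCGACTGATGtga

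Transcripts with the lamin C end made up most of Lmna. They took 77.4% of its TPM in pup 1 and 79.3% in pup 3 (78.3% ± 1.34, SD, n = 2), at 34.7 and 35.25 TPM, in 2 transcripts of which Lmna-203 alone took 72.4% and 68.5%. The lamin A transcript Lmna-201 took 21.7% and 18.1% (19.9% ± 2.54), at 9.75 and 8.07 TPM. Lamin C over lamin A was thus 3.54 in pup 1 and 4.33 in pup 3 (log2 1.97 ± 0.21), past 3 SD. The lamin A transcript is longer, and as a ratio of expected counts, which are not corrected for length, lamin C over lamin A was 2.20 and 2.65.

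The 3′ UTR also differs between the ends. As background, miR-9 is a microRNA abundant in brain that is known to act on the 3′ UTR of lamin A transcripts; it was not measured here. Its mature sequence, from RefSeq on GRCm38.p6, is shown with the seed in capitals, together with the 23 bases of the Lmna-201 3′ UTR that hold the matching 7 letters in capitals (chr3:88481785-88481807, minus strand).
mmu-miR-9-5p: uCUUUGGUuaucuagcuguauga
Lmna-201 site: tgtatctgccttaaaACCAAAGg
The motif searched was ACCAAAG on the transcript strand. It occurred 1 time in the 926-nt 3′ UTR of Lmna-201, starting at base 282 of it, and 0 times in the 92-nt 3′ UTR of Lmna-203 and the 91-nt 3′ UTR of Lmna-202. In the first 926 nt of annotated 3′ UTRs, 924 of 10783 genes (8.57%) held the same letters. A match of letters is a description only, and the shorter windows of the lamin C transcripts hold fewer positions to match.

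Lmnb1 (chr18:56707813-56753424, plus strand), the gene of lamin B1, stood at 47.0 TPM in pup 1 (3152 counts) and 36.4 TPM in pup 3 (2811 counts), 41.7 ± 7.50 TPM (SD, n = 2), above 71.8% of detected protein-coding genes. Nearly all of it was 1 full-length transcript, Lmnb1-201, with 97.8% and 100% of its TPM. Genes nearest to Lmnb1 in level were Cd2bp2 (46.8 and 36.65 TPM), Ampd2 (47.1 and 36.7 TPM) and Syt3 (47.6 and 36.4 TPM). They were picked by their levels in both pups, so a higher level in pup 1 follows from that choice.

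Lmnb2 (chr10:80901203-80918245, minus strand), the gene of lamin B2, was the lowest of the lamins at 21.3 TPM in pup 1 (1752 counts) and 18.4 TPM in pup 3 (1745 counts), or 19.8 ± 2.03 TPM, above 54.0% of detected protein-coding genes. Lmnb2-201 led in both pups with 77.2% and 74.2% of its TPM, followed by Lmnb2-204, which has another start, with 20.0% and 25.3%.

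Between the lamins, Lmna and Lmnb1 could not be ordered. Lmnb1 over Lmna was 1.05 in pup 1 and 0.819 in pup 3 (log2 -0.11 ± 0.25, SD, n = 2), within the spread and on opposite sides of 1. Lmnb2 was lower than both: Lmna over Lmnb2 was 2.11 and 2.41, and Lmnb1 over Lmnb2 was 2.21 and 1.98 (log2 1.06 ± 0.11), both past 3 SD. The B-type lamins summed to 1.52 and 1.23 times Lmna (log2 0.45 ± 0.21), which did not pass 3 SD. Set against the lamin A transcript alone, by the values above, Lmnb1 was higher in both pups.

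**Figure D2:**
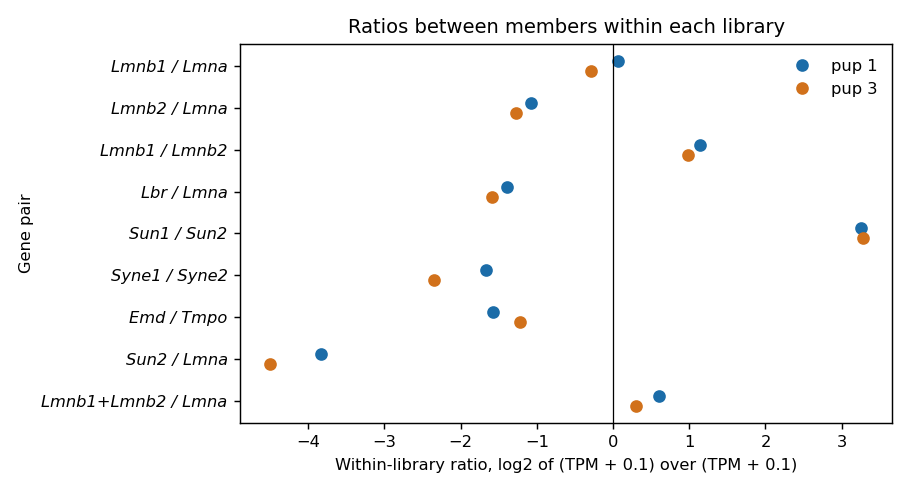
Log2 ratio of TPM + 0.1 between genes within each pup, with 1 point for each pup, for the 9 pairs compared. Sun1 over Sun2 lies above 3 in both pups with almost no spread, and Lmnb1 over Lmna falls on both sides of 0.

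Of Lbr, Emd and Tmpo, the 3 inner membrane genes among the 10, Tmpo was the highest. Tmpo (chr10:91147571-91181315, minus strand) encodes the LAP2 proteins, which bind lamins and, through the LEM domain, the chromatin factor BAF. It stood at 43.1 TPM in pup 1 (3657 counts) and 40.3 TPM in pup 3 (3865 counts), or 41.7 ± 2.02 TPM (SD, n = 2), above 71.8% of detected protein-coding genes. Tmpo-202 led with 53.8% and 54.5% of its TPM, and Tmpo-203 followed with 26.1% and 19.5%. The transcript with the exon of LAP2 alpha, the isoform that is not anchored in the membrane, was Tmpo-201. It took 12.4% and 14.6% (13.5% ± 1.58), or 5.35 and 5.89 TPM. Only 5 Tmpo transcripts were measured, against 13 in GENCODE M21, so these shares are of the measured ones.

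Emd (chrX:74254687-74261548, plus strand) encodes emerin, another LEM domain protein. It stood at 14.5 TPM in pup 1 (357 counts) and 17.2 TPM in pup 3 (518 counts), 15.8 ± 1.96 TPM, above 48.3% of detected protein-coding genes, and its TPM, alone among the 10 genes, was higher in pup 3; under TMM scaling, described below, Lmna, Lmnb2, Lbr and Tmpo were higher there too. Tmpo was 2.97 times Emd in pup 1 and 2.33 times in pup 3 (log2 of Emd over Tmpo -1.40 ± 0.25), past 3 SD. On CPM, without correction for the shorter Emd, that log2 ratio was -3.12. The full-length Emd-201 took 43.95% and 53.6% of its TPM, and the 614-nt noncoding Emd-205 took 49.5% and 39.4%, so the leading transcript differed between the pups. By counts Emd-201 held 66.2% and 75.0%.

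Lbr (chr1:181815335-181843046, minus strand) encodes the lamin B receptor, which tethers heterochromatin to the envelope and is also a sterol reductase. It stood at 17.1 TPM in pup 1 (1342 counts) and 14.7 TPM in pup 3 (1290 counts), or 15.9 ± 1.71 TPM, above 48.3% of detected protein-coding genes. Lmna was 2.62 and 3.01 times Lbr, past 3 SD. The full-length Lbr-201 took 79.4% and 78.2% of its TPM and the retained-intron transcript Lbr-203 took 16.5% and 16.65%, nearly the same in both pups.

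Of the SUN genes, Sun1 was over 9-fold more abundant than Sun2 in both pups. Sun1 (chr5:139200637-139249840, plus strand) stood at 30.0 TPM in pup 1 (2286 counts) and 19.0 TPM in pup 3 (1642 counts), 24.5 ± 7.77 TPM (SD, n = 2), above 59.3% of detected protein-coding genes. Sun2 (chr15:79724070-79742536, minus strand) stood at 3.06 TPM (177 counts) and 1.87 TPM (149 counts), 2.47 ± 0.841 TPM, above 9.19% of detected protein-coding genes. Sun1 over Sun2 was 9.52 in pup 1 and 9.69 in pup 3 (log2 3.26 ± 0.018), past 3 SD, and both genes stood lower in pup 3. The log2 ratio was lower, 2.87, both on the deposited posterior mean TPM and with a pseudocount of 1, and still past 3 SD. On CPM, which is not corrected for length, it was 3.55, and its SD was 0.17 in place of 0.018. Lmna was 14.2 and 22.6 times Sun2, also past 3 SD. The deposited interval for Sun2 in pup 3, 1.89 to 3.86 TPM, surrounds another estimate, and its lower bound lies above the TPM itself.

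Transcripts that encode the SUN domain end, the part that binds the nesprins, took 73.4% and 76.8% of the TPM of Sun1 (75.1% ± 2.38), led by Sun1-205 with 37.9% and 40.9% and Sun1-201 with 28.2% and 27.0%. Retained-intron transcripts took a further 17.5% and 11.1%. For Sun2 the SUN end took 45.4% and 64.6% (55.0% ± 13.6), and the split among its full-length transcripts differed between the pups: Sun2-202 had 18.3% in pup 1 and 31.9% in pup 3, Sun2-201 had 27.1% and 0%, and Sun2-203 had 0% and 32.7%. The retained-intron Sun2-205, with 31.2% and 27.8%, led in pup 1, and Sun2-203 led in pup 3. The deposited intervals of Sun2-201, Sun2-202 and Sun2-203 overlapped between the pups. By posterior means Sun2-201 had 14.2% and 5.92%, Sun2-202 had 14.0% and 18.9%, and Sun2-203 had 4.01% and 15.7%.

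Of the nesprins, Syne2 stood above Syne1 in TPM over all transcripts of each gene. Syne2 (chr12:75818134-76110926, plus strand), the gene of nesprin-2, was at 23.2 TPM in pup 1 (2260 counts) and 17.5 TPM in pup 3 (1770 counts), 20.4 ± 4.07 TPM (SD, n = 2), above 54.8% of detected protein-coding genes. Syne1 (chr10:5020917-5551482, minus strand), the gene of nesprin-1, was at 7.25 TPM (1065 counts) and 3.35 TPM (552 counts), 5.30 ± 2.76 TPM, above 22.9%. Syne2 over Syne1 was 3.17 and 5.09, past 3 SD. These levels depend on which transcripts the annotation of the tables holds, since both genes make giant and short forms. Syne1 has 2 transcripts in the tables against 9 in GENCODE M21, and its giant form is not among the 2. Transcripts with the KASH end, described below, were at 3.27 and 1.60 TPM for Syne1 and at 2.12 and 1.54 TPM for Syne2. In pup 3 the Syne2 value lay within the deposited interval of the Syne1 transcript, 1.36 to 1.78 TPM. The ratio was not put to the 3 SD rule, so no order is drawn from these levels. The Syne1 transcript, Syne1-202, has 4819 nt in the tables and 3443 nt in GENCODE M21. By expected counts Syne2 was the higher for these transcripts, with 884 and 621 against 384 and 212.

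The KASH end, which anchors a nesprin in the outer membrane and binds SUN proteins, is shown for both genes because it defines the forms that can take part in the LINC complex. The 93 bases are the last coding bases of Syne1-202 (chr10:5022007-5022099, minus strand) and of Syne2-210 (chr12:76109952-76110044, plus strand), with the last 4 codons before the stop in capitals; 70 of 93 bases (75.3%) were the same.
Nesprin-1 KASH end: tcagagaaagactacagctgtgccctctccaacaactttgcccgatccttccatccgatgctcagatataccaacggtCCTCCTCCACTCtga
Nesprin-2 KASH end: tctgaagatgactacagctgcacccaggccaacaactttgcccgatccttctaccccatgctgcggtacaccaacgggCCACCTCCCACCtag
The other measured Syne1 transcript, Syne1-201, begins at the start codon of the giant form and stops early without a KASH end. Its last 60 coding bases (chr10:5339203-5339262, minus strand) carry in capitals the 22 bases not found in the giant transcript.
Nesprin-1 short end: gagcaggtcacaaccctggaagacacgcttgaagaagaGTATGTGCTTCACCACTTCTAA

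The KASH transcript Syne1-202 took 45.1% and 47.6% of the TPM of Syne1 (46.4% ± 1.77, SD, n = 2), at 3.27 TPM (384 counts) and 1.60 TPM (212 counts). The KASH-less Syne1-201 took the rest, at 3.98 TPM (681 counts) and 1.76 TPM (340 counts). The giant form, not among the measured transcripts, has the start of Syne1-201. Reads from giant forms could have been assigned to either transcript, so the shares do not give the part of Syne1 RNA with a KASH end. Both transcripts thus stood lower in pup 3, and the division between them was nearly the same in both animals.

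For Syne2 the picture depended on the unit. Transcripts with the KASH end took only 9.12% and 8.80% of its TPM (8.96% ± 0.226), or 2.12 and 1.54 TPM, but 39.1% and 35.1% of its expected counts. Most of those counts belonged to the giant Syne2-210 of 21704 nt, which took 6.36% and 4.79% of TPM (1.48 and 0.84 TPM) and 35.1% and 28.7% of counts. The leading transcript by TPM was Syne2-206, annotated to nonsense-mediated decay and without a complete start or the KASH end, with 48.5% and 51.6% (11.3 and 9.02 TPM). Next came Syne2-213, which has the first start and an incomplete annotated end, with 16.8% and 14.9%.

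**Figure D3:**
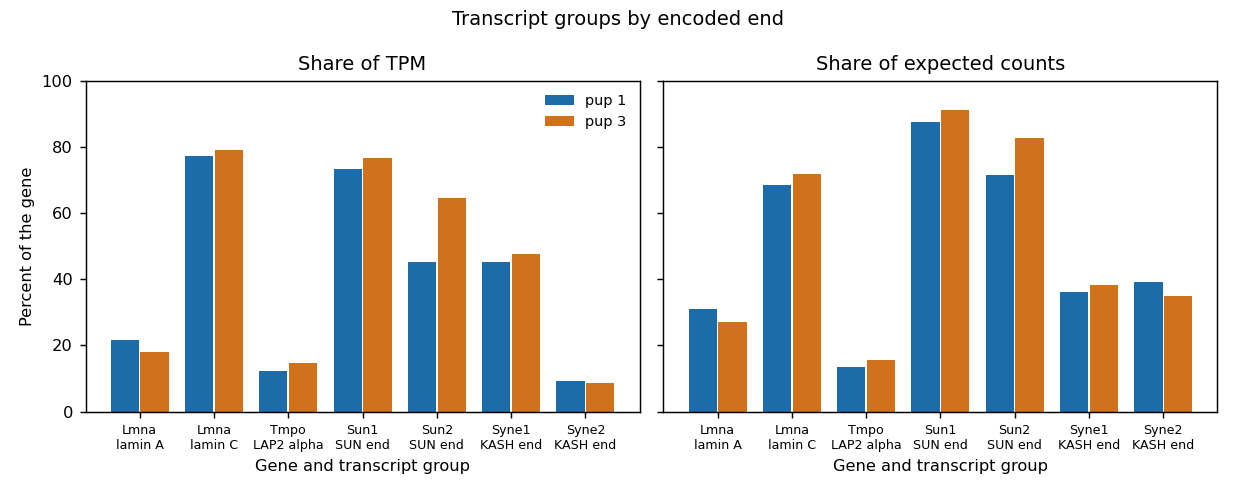
Percent of each gene's TPM (left) and of its expected counts (right) in transcripts grouped by the end they encode, with 1 bar for each pup. Lamin C exceeds lamin A in both pups and both units, while the KASH end of Syne2 takes about 9% of TPM and over 35% of counts.

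Over all 10 genes, transcripts annotated as protein coding took 99.2% of the TPM of Lmna, 98.9% of Lmnb1, 98.3% of Lmnb2 and 100% of Tmpo and Syne1, as means of both pups. The shares were 85.7% for Sun1, 82.6% for Lbr, 69.7% for Sun2, 55.5% for Emd and 37.5% for Syne2. The median over 9516 detected protein-coding genes with more than 1 transcript was 94.6%. The leading transcript was the same in both pups for 8 of 10 genes, against 91.2% of those 9516 genes; by posterior means and by expected counts it was the same for 9 of 10.

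Between the pups, 9 of 10 genes had a lower TPM in pup 3, against 80.4% of the 14985 genes with a mean of at least 1 TPM, and with TMM scaling of counts the numbers were 5 of 10 against 49.1%. The median log2 ratio of pup 3 over pup 1, on TPM + 0.1, was -0.29 for the 10 genes and -0.27 for all genes, and TMM moved the latter to 0.01. The median of the 10 was near that of the whole table, with single genes from -1.09 (Syne1) to 0.25 (Emd), and Lmna, Lmnb2, Lbr and Tmpo changed sign under TMM (to 0.21, 0.10, 0.05 and 0.19). The deposited intervals of the pups did not overlap for 6 of 10 genes (Lmnb1, Lmnb2, Tmpo, Sun1, Syne1 and Syne2), against 53.6% of all genes.

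A gene was called different between the pups where its TPM differed at least 2-fold and the intervals did not overlap. By this rule 1 of 10 genes was called, Syne1, against 3.98% of all genes in either direction and 3.85% called lower in pup 3. Syne1 was 2.13-fold lower in pup 3 (log2 -1.09), with intervals of 6.66 to 7.53 and 3.02 to 3.58 TPM, and 96.0% of genes had a smaller ratio in size. The direction was kept with TMM (log2 -0.84), with DESeq2 size factors (-0.83) and with a pseudocount of 1 (-0.92), but the 2-fold limit was then missed. Sun2 (1.60-fold), Sun1 (1.58-fold), Syne2 (1.33-fold) and Lmnb1 (1.29-fold) were also lower in pup 3, in TPM and under TMM, without being called. Emd was 1.19-fold higher there in TPM (log2 0.25), with overlapping intervals. Its log2 ratio was larger with TMM (0.64) and with DESeq2 size factors (0.65), and it was not called under either.

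Gene length moved with the difference between the libraries. The median log2 ratio of pup 3 over pup 1 was 0.03 for 2494 genes with an effective length under 1000 nt, -0.16 for 4092 genes of 1000 to 2000 nt (Emd among them), -0.32 for 5838 genes of 2000 to 4000 nt (8 of the 10 genes) and -0.50 for 2561 genes of 4000 nt or more, where Syne1 lies. Calls were 2.61%, 2.42%, 4.21% and 7.26% of these classes. The part of length in the lower level of Syne1 in pup 3 was not tested.

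**Figure D4:**
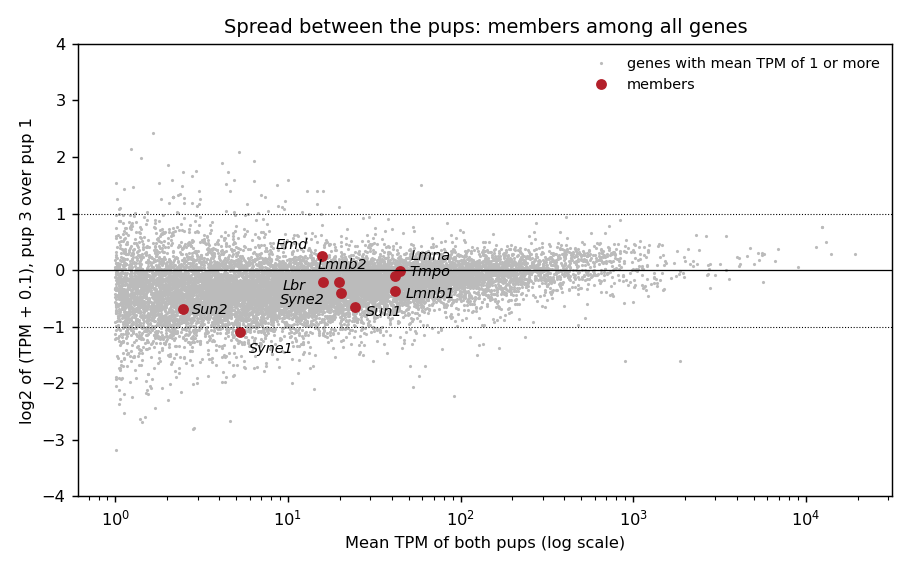
Log2 ratio of TPM + 0.1, pup 3 over pup 1, against mean TPM (log axis) for 14985 genes in grey and the 10 named genes in red; 73 genes lie beyond the axis limits and the dotted lines mark 2-fold. Of the named genes, Syne1 alone lies past the lower line, and the grey cloud is itself centred below 0.

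Genes that act with the lamins and the LINC complex were read from 6 lists with 39 genes, of which all were measured and 33 detected. Of these 33, 1 was called different between the pups, Syne4, beside 3.98% of all genes.

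All 5 genes that modify CaaX proteins were detected, with a median of 32.8 TPM. Fnta, a subunit of farnesyltransferase, was the highest at 66.85 TPM in pup 1 and 47.5 TPM in pup 3 (57.2 ± 13.7, SD, n = 2). Icmt, the methyltransferase of the same pathway, was the lowest at 11.0 and 8.11 TPM. The prelamin A protease gene Zmpste24 stood at 14.0 and 10.8 TPM beside 9.75 and 8.07 TPM of the lamin A transcript.

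All 11 further inner membrane and lamin partners were detected, with a median of 16.7 TPM. Banf1, which encodes BAF, the chromatin factor bound by LEM domains, was the highest at 359 TPM in pup 1 and 440.0 TPM in pup 3 (400 ± 57.0). In TPM that is far above Emd and Tmpo, whose proteins bind BAF. In expected counts, not corrected for length, the gap to Tmpo was smaller: 5685 and 7876 for Banf1 against 3657 and 3865 for Tmpo. Lemd3, another LEM domain gene, was the lowest at 2.23 and 2.01 TPM, and Tor1a, the gene of torsin A, stood at 84.9 and 88.5 TPM.

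Of the 7 other SUN and KASH genes, 2 were detected, beside all 4 of Sun1, Sun2, Syne1 and Syne2. Spag4 stood at 4.80 and 4.14 TPM, and Syne4, whose nesprin-4 binds kinesin, at 3.90 TPM (73 counts) and 1.52 TPM (34 counts). Below the limit lay Ccdc155 (0.85 and 0.30 TPM), Lrmp (0.74 and 0.82), Syne3 (0.33 and 0.16) and Sun3 (0.27 and 0.23). Sun5 was listed at 0 in both pups.

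Of 9 genes of nuclear movement, 8 were detected, with a median of 48.9 TPM. The kinesin light chain gene Klc1 was the highest at 555 and 492 TPM, and Kif5b, a kinesin heavy chain gene, stood at 120 and 82.0 TPM. Of the dynein genes and partners, Ndel1 was at 96.0 and 94.3 TPM, Pafah1b1, which encodes the dynein regulator LIS1, at 54.5 and 46.85 TPM, the heavy chain gene Dync1h1 at 47.4 and 37.8 TPM, and the adaptor gene Bicd2 at 20.2 and 17.2 TPM. Fhod1, a formin that binds the giant nesprin-2, was at 0.27 and 0.13 TPM, below the limit.

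Chromatin partners of the lamina (5 of 5 detected) had a median of 68.2 TPM. Cbx3, an HP1 gene, was the highest at 443 and 542 TPM, and Rb1, whose product binds the complex of lamin A and LAP2 alpha, was the lowest at 17.7 and 13.3 TPM. The 2 sterol reductase genes that share an enzymatic function with Lbr or follow it in the pathway were above Lbr in TPM in both pups. Tm7sf2 was at 41.7 and 33.5 TPM and Dhcr7 at 64.4 and 52.9 TPM. By expected counts, which are not corrected for length, Tm7sf2 was below Lbr, at 1241 and 1091 against 1342 and 1290.

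**Figure D5:**
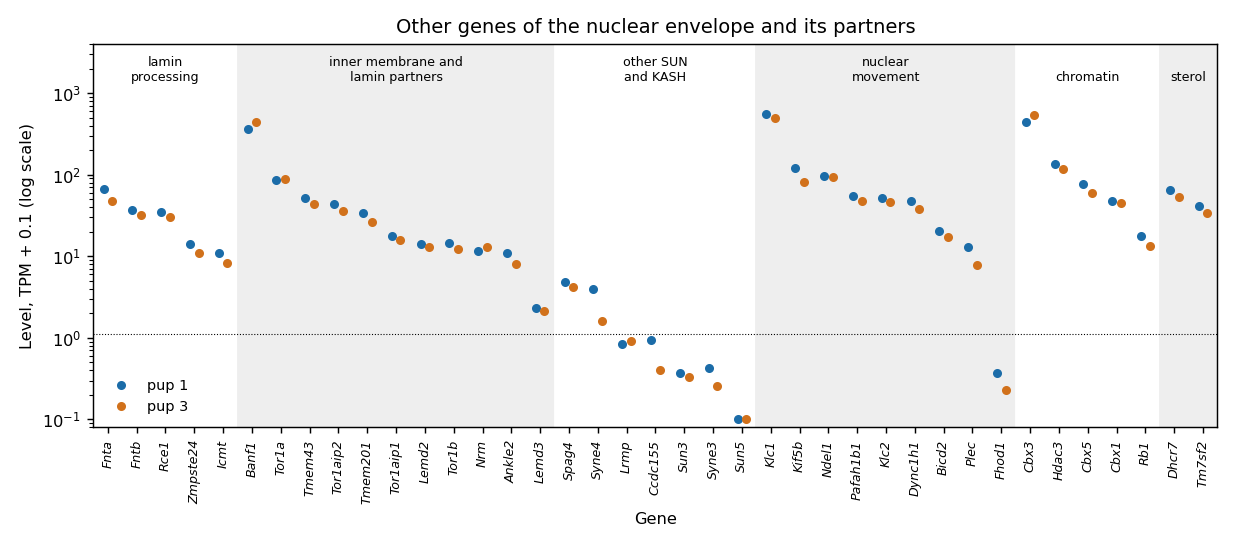
TPM + 0.1 (log axis) of the 39 genes in the 6 lists of lamin and LINC partners, with 1 point for each pup, genes ordered by level within a list, and a dotted line at the detection limit of 1 TPM. Of the 7 other SUN and KASH genes, 5 lie below the line in both pups, as does Fhod1 among the genes of nuclear movement.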

How the data were processed

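RNA of whole forebrains was extracted with mirVana, 10 ng entered each library, and the labels give a size range above 200 nt, name spike-ins and link a SMARTer low-input manual. The authors quantified reads on mm10 with GENCODE M4, per the submitters' processing notes; aligner, quantifier and strand use: not given in the sources used here. Both deposited tables hold expected counts, TPM and FPKM for each gene and transcript, per the file headers, with an interval around a posterior mean whose level is not given. FPKM was not used. The transcript tables also give the deposited percent of a gene's TPM in each transcript. The rule for differences between pups joins a ratio of TPM with intervals around the posterior mean.

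GENCODE M21 (GRCm38) gave the symbols, biotypes and positions of 42462 of 43346 genes. Of the 81 transcripts of the 10 genes, 1 was not in M21 and 7 had another length there. Entries that name no gene held 0.000845% and 0.000693% of counts and were left out. The list of member names and the gene lists were chosen with earlier results of these data known. Named were the 10 members, the highest and lowest gene of each list and those below 1 TPM, leading transcripts and those with 10% or more in both pups, and for Lmna and Lmnb1 the 3 genes nearest in level. Named outside that rule, after their values were seen, were Zmpste24, Tor1a, Kif5b, Ndel1, Pafah1b1, Dync1h1, Bicd2 and transcripts under that share in a pup; the ratio of lamin C to lamin A was also added then. Ratios used log2 of TPM + 0.1, which understates changes of low genes. Alternatives used CPM, TMM (edgeR 4.0.16), size factors (DESeq2 1.42.0, R 4.3.3), other pseudocounts and limits, and each pup alone. Genes in the tables that overlap the members had at most 5.24 counts in a pup. Intervals cover counting and assignment error only.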

Additional observations from a re-analysis of the deposited data

How the results depend on the processing

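No paired analysis was possible because both samples belong to 1 group. Over 165 combinations of a result and an alternative, 136 stayed on their side of the threshold or within the allowed spread, among them Lmna, Lmnb2, Lbr and Tmpo between pups, which were never called and changed sign with TMM. Some of the 136 could not come out otherwise, so that number is no measure of how firm the results are. With 2 pups, a transcript share in 1 pup always lies within the SD around the mean. A pair past 3 SD has 1 sign in both pups, and a gene detected in both pups is detected in each. Counts within 1.5-fold of the main value were also taken as unchanged. With CPM, which leaves out gene length, Lmnb1 over Lmna turned to a log2 ratio of 0.27, the B-type sum over Lmna rose to 0.94 and passed 3 SD, Emd over Tmpo moved to -3.12 and Lmnb2 over Lmna to -0.50, and 4 of 10 genes kept their place in the order. In single pups Lmnb1 over Lmna ran from -0.29 to 0.066, and 4 to 8 of 10 genes kept their place. Against 596 genes called between pups, the count was 219 with TMM, 218 with DESeq2 size factors, 270 with a pseudocount of 1, 283 at a mean of 5 TPM or more, 997 with no filter and 2538 at 1.5-fold. Of the members, 0 were called with TMM, with DESeq2 size factors or with a pseudocount of 1, and 2 (Sun1 and Syne1) at 1.5-fold. Of the members, 5 were lower in pup 3 with TMM and 5 with DESeq2 size factors. By expected counts the shares were 29.2% for lamin A, 70.3% for lamin C, 89.5% for the SUN end of Sun1, 77.3% for that of Sun2, and 37.2% and 37.1% for the KASH ends of Syne1 and Syne2. By posterior means they were 68.3% for Sun1, 36.4% for Sun2 and 8.21% for Syne2. Beyond the units and sample numbers named, the cause was not tested. Sun2 had the fewest expected counts of the 10 genes, 177 and 149, which limits the precision of its transcript shares.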

Other observations

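Nuclear pore genes, the other large protein group of the envelope, were read from a list added after the data had been seen. Of 28 listed genes 27 were measured, and all 27 were detected, with a median of 14.9 TPM, near the levels of Lbr and Emd. Sec13, which also serves in vesicle coats, was the highest at 159 ± 3.04 TPM (SD, n = 2), and Nup98 the lowest at 4.65 ± 1.42 TPM. The list summed to 925 TPM in pup 1 and 813 TPM in pup 3, with 24 of 27 genes lower in pup 3 and 0 called by the 2-fold rule, beside 80.4% of all genes lower and 3.98% called.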
